A study of Mus musculus with 6 samples.

Results

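The mitochondrially encoded genes are the 37 genes of the mouse mitochondrial chromosome, taken here as every gene whose Ensembl identifier carries a symbol starting with mt-, of 56940 genes listed in the count files. They comprise 2 ribosomal RNA genes, 13 protein-coding genes and 22 transfer RNA genes. RNA had been sequenced from lens capsules and their attached lens epithelial cells (LEC) in mice, after an operation modelled on cataract surgery that takes out the fiber cells and leaves capsule and epithelium behind. All mice were C57BL/6 wildtype animals, with no age given. The 0 h group (LEC_0h) held capsules taken at surgery, and the 5 day group (LEC_5d) held capsules taken 5 days after surgery. The animals had their eyes operated on 5 days apart, and both capsules were collected after the second operation, so the 0 h capsules came from animals that already carried an operated eye. Each of the 3 libraries per group was a pool of 5 capsules, and whether a pool at 0 h and a pool at 5 days shared animals is not stated. Libraries were made from total RNA with a stranded kit for very small inputs (SMARTer Stranded Total RNA-Seq Pico).

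The mitochondrial chromosome is transcribed from both strands into long precursors, from which ribosomal and messenger RNAs are released, largely by excision of the transfer RNAs between them. Its messenger RNAs encode core subunits of respiratory complexes I, III, IV and V, while all other subunits, the mitochondrial ribosomal proteins and the transcription and decay enzymes are encoded in the nucleus. In the lens, mitochondria are kept in the epithelium and are cleared as fiber cells mature. Of the 37 genes, 28 are read from the strand that carries most genes (here the heavy-strand transcript), and 9, namely mt-Nd6 and 8 transfer RNAs, from the opposite one (the light-strand transcript).

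The libraries held between 6207387 and 9774343 gene counts. Capsules at 0 h carried the lens markers, with crystallin genes at 15.7% ± 1.15 (SD, n = 3) of gene counts against 2.41% ± 1.34 at 5 days. Of 8 lens epithelial markers, all counted in every library, 6 fell and Pax6 rose, and all 5 lens fiber markers matched in the files fell. Marker levels of other cell types moved with time: all 6 macrophage and monocyte markers rose (summed 12.8 to 27.9 CPM at 0 h and 403 to 576 CPM at 5 days, where CPM is a count scaled to its library's TMM-adjusted total). All 8 photoreceptor markers fell (summed 523 to 793 CPM at 0 h and 34.5 to 98.9 at 5 days). All 4 smooth muscle markers rose (summed 207 to 229 CPM and 626 to 1103 CPM). Most of that sum was Acta2, at mean levels of 216 CPM at 0 h and 786 CPM at 5 days. Myh11, Cnn1 and Des had means of 3.11, 0.0898 and 0.264 CPM at 0 h and of 9.21, 5.89 and 2.64 CPM at 5 days. Which cells held the Acta2 RNA was not tested. Of 3 endothelial markers 2 rose (2.83 to 9.30 CPM and 16.1 to 35.0 CPM). Of 6 striated muscle markers (6.08 to 9.43 CPM and 2.89 to 7.00 CPM) both tested ones, Ckm and Actn3, fell. Of the 4 too low to test, Myh4 had no counts at 5 days, and Myh1, Tnnt3 and Mylpf had mean levels of 0.583, 0.223 and 0.533 CPM at 0 h and of 1.81, 0.649 and 0.657 CPM at 5 days, with groups that overlapped. The 3 tested pigment cell markers had adjusted p of 0.077 (Tyr), 0.0778 (Pmel) and 0.907 (Dct) in edgeR's quasi-likelihood test, and their list overlapped between the groups (9.02 to 25.5 CPM and 7.32 to 24.2 CPM). The 3 erythrocyte markers were too low to test. The part of these shifts in the mitochondrial values was not tested, and in bulk RNA fewer cells of a type and less RNA per cell cannot be told apart.

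Between 0 h and 5 days both mitochondrial ribosomal RNAs and the messenger RNA mt-Nd6 rose, and the other 11 measurable mitochondrial genes did not pass the test. Of the 37 genes, 14 passed the filter on low counts, namely 2 ribosomal, 10 protein-coding and 2 transfer RNA genes. The quasi-likelihood test of edgeR, adjusted by Benjamini-Hochberg over every tested gene, called 3 of these 14 higher at 5 days, or 21.4%, against 25.1% called higher and 22.5% called lower among all 14676 tested genes. The share called is no higher than the background, so the count says nothing particular about the mitochondrial genes. No member was called lower, by edgeR at an unadjusted p under 0.05 (0 members), by DESeq2 (0) or by limma-voom (0). The median log2 fold change was 0.19 over the 14 genes and -0.01 over all tested genes. By class it was 0.75 for the ribosomal RNAs, 0.19 for the messenger RNAs and -0.24 for the 2 transfer RNAs. In 5 of the 14 genes the groups did not overlap, each with 5 days above, against 58.1% of all tested genes in either direction and 29.9% with 5 days above.

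**Figure D1:**
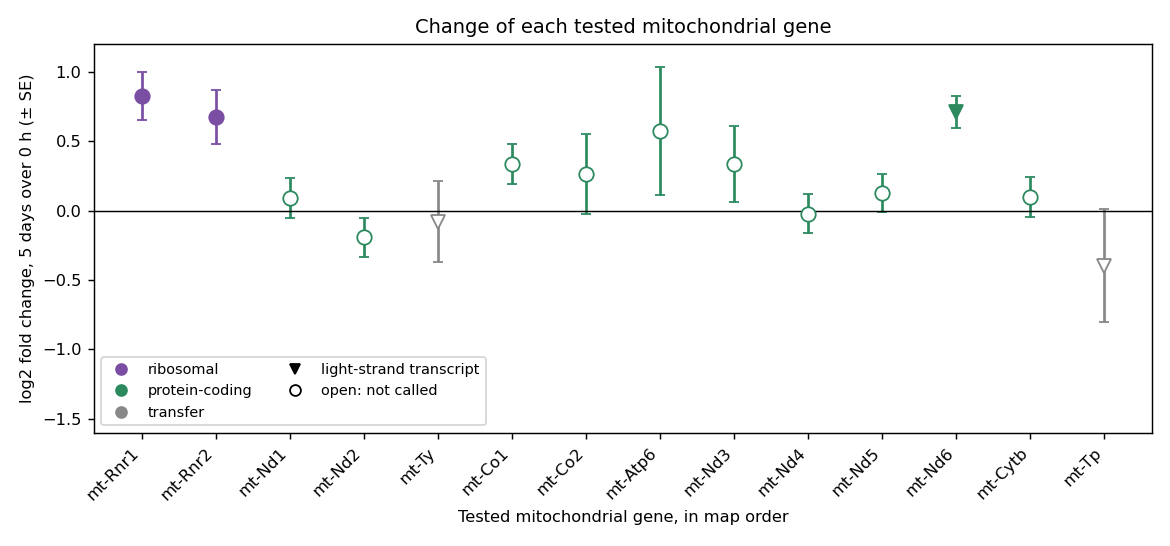
Log2 fold change at 5 days against 0 h, with its standard error, for the 14 mitochondrial genes that passed the filter, in map order and colored by class. Filled symbols are called genes and triangles are genes of the light-strand transcript. The 3 called genes, mt-Rnr1, mt-Nd6 and mt-Rnr2, lie between 0.67 and 0.82.

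mt-Rnr1 (ENSMUSG00000064337, chrM:70-1024 in GRCm38, plus strand) is the RNA of the small subunit of the mitochondrial ribosome. Its levels were 11561, 13014 and 13273 CPM in the 0 h libraries and 27264, 19741 and 19981 CPM at 5 days. Every 5 day library was above every 0 h library, with the first 5 day library highest. The log2 fold change was 0.82 (SE 0.17), with an adjusted p of 0.00197 in edgeR's quasi-likelihood test. mt-Rnr2 (chrM:1094-2675, plus strand) is the large-subunit RNA, separated from mt-Rnr1 by the transfer RNA mt-Tv. It stood at 35829.7, 38980.5 and 38672 CPM at 0 h and at 74482, 52609 and 53951 CPM at 5 days. Again the groups did not overlap and the first 5 day library was highest. Its log2 fold change was 0.67 (SE 0.19), with an adjusted p of 0.0122 in the same test. With the replicate number as a block in that test, mt-Rnr2 was not called (0.66, adjusted p = 0.0697). The labels do not say that these numbers pair the pools. Without the first 5 day library the log2 fold changes were 0.65 for mt-Rnr1 and 0.49 for mt-Rnr2, and both were still called. That library also had the highest summed macrophage markers of the 5 day group, at 576 CPM. It had the fewest gene counts of all libraries, at 6207387, and the most unaligned reads, at 11.3% of entries. Whether any of these bears on its values was not tested. The kit used here includes a step that cuts cDNA of ribosomal RNA, so both genes were counted from what that step left.

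The balance of the 2 ribosomal RNAs was also compared within libraries. The count of mt-Rnr2 per count of mt-Rnr1 was 3.10, 3.00 and 2.91 at 0 h and 2.73, 2.67 and 2.70 at 5 days, so the ratio was lower in every 5 day library. An exact two-sided permutation test gave p = 0.1 (adjusted p = 0.14 over 7 ratios). This is the smallest p it can give with 3 libraries against 3, so the test could not pass 0.05 and does not decide whether the ratio differed.

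**Figure D2:**
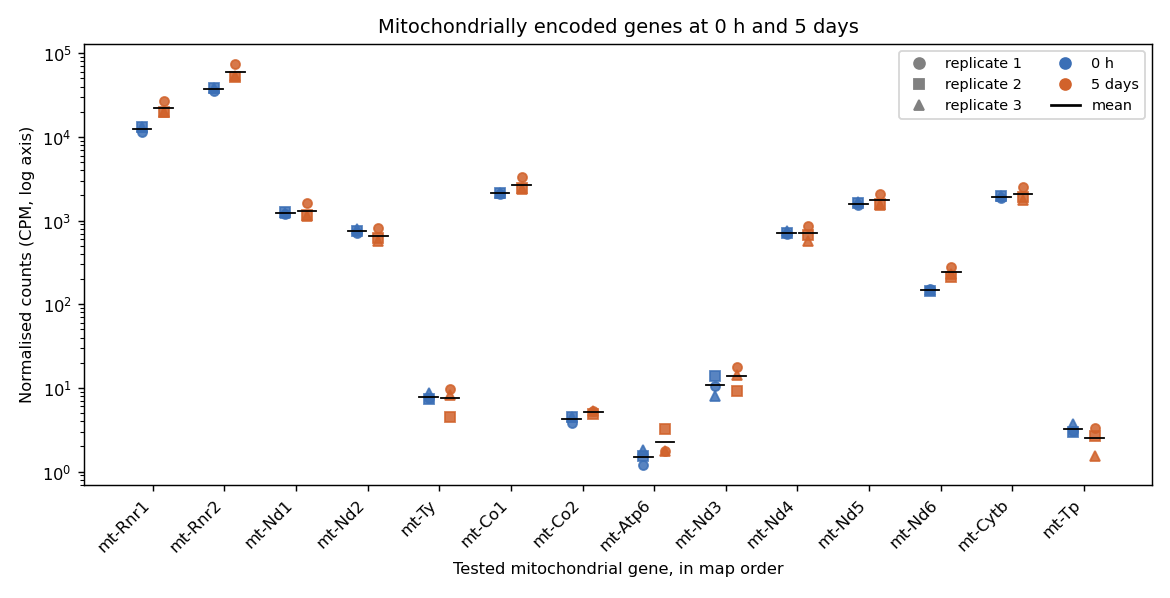
CPM (log axis) of the mitochondrial genes that passed the filter in each of the 3 libraries at 0 h (blue) and the 3 at 5 days (orange), with a line at each mean. For mt-Rnr1, mt-Rnr2, mt-Nd6, mt-Co1 and mt-Co2 the 5 day points all lie above the 0 h points.

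mt-Nd6 (ENSMUSG00000064368, chrM:13552-14070, minus strand) encodes a membrane subunit of complex I and is the single protein-coding gene of the light-strand transcript. Its neighbor mt-Cytb (chrM:14145-15288, plus strand) encodes the single mitochondrial subunit of complex III. The first 60 bases of both genes are shown, with G in capitals, because they show the opposite base bias of messenger RNAs from the 2 strands. mt-Nd6 holds 28.1% G and mt-Cytb 12.2% over the whole gene.
mt-Nd6: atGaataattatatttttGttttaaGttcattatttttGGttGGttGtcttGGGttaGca
mt-Cytb: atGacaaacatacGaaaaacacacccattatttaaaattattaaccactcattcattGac

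mt-Nd6 stood at 150.3, 144 and 147 CPM at 0 h and at 281, 211 and 230.2 CPM at 5 days. The groups were well apart, and the 0 h libraries lay close together. The log2 fold change was 0.71 (SE 0.11), with an adjusted p of 0.000242 in edgeR's quasi-likelihood test. mt-Cytb stood at 1856, 1977 and 1968 CPM at 0 h and at 2511, 1942 and 1759.97 CPM at 5 days. Its groups overlapped, with the first 5 day library above and the third below all 0 h libraries, and the log2 fold change was 0.10 (SE 0.14). Set against mt-Cytb within each library, which needs no scaling between libraries, the 0 h ratios of mt-Nd6 to mt-Cytb counts were 0.0810, 0.0727 and 0.0746, and those of the 5 day libraries 0.112, 0.109 and 0.131. The ratio was 1.54 times higher at 5 days, and the groups did not overlap. Per 100 counts of the other 12 protein-coding genes, mt-Nd6 went from 1.75 ± 0.0848 to 2.63 ± 0.222 (SD, n = 3 each). The strand setting of the counting is not given, so reads of mt-Nd6 and of antisense RNA over it cannot be told apart with certainty.

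mt-Co1 (chrM:5328-6872, plus strand), the catalytic core subunit of complex IV, was just short of the threshold. It stood at 2089, 2144 and 2163 CPM at 0 h and at 3282, 2423 and 2366 CPM at 5 days. The groups did not overlap, but the adjusted p in edgeR's quasi-likelihood test was 0.075, with a log2 fold change of 0.34 (SE 0.14). DESeq2 (adjusted p = 0.0218) and limma-voom (0.0328) called it higher, and over all alternatives the adjusted p ran from 0.0106 to 0.338. The highest came without the first 5 day library, where the log2 fold change was 0.16 (adjusted p = 0.338 in edgeR's quasi-likelihood test). Of the 50-base windows of mt-Co1, 51.1% were found exactly in a nuclear transcript (described further on). Per count of mt-Cytb, mt-Co1 went from 1.13, 1.08 and 1.10 at 0 h to 1.31, 1.25 and 1.34 at 5 days, again without overlap.

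The complex I subunits of the heavy-strand transcript did not pass the test. mt-Nd1, which encodes a subunit near the quinone site, stood at 1214, 1255 and 1239 CPM at 0 h and at 1632, 1171 and 1143 CPM at 5 days. mt-Nd5, which encodes one of the proton-pumping membrane subunits, stood at 1536, 1608 and 1647 CPM at 0 h and at 2106, 1587 and 1532 CPM at 5 days. In both genes the first 5 day library lay above, and the other 5 day libraries below or among, the 0 h values. mt-Nd2, another pumping subunit, stood at 710.3, 761 and 802 CPM at 0 h and at 809.6, 613 and 565 CPM at 5 days. mt-Nd4, the third of these pumping subunits, stood at 701, 707 and 743 CPM at 0 h and at 870.4, 668 and 579 CPM at 5 days. The log2 fold changes were 0.09 for mt-Nd1, 0.12 for mt-Nd5, -0.19 for mt-Nd2 and -0.02 for mt-Nd4, each with an SE of 0.14. Without the first 5 day library mt-Nd2 was called lower (-0.37, adjusted p = 0.0389 in edgeR's quasi-likelihood test), so 1 library decided that call.

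Within libraries, 3 of the 5 ratios to mt-Cytb that involve complex I subunits differed without overlap, counting mt-Nd6. mt-Nd2 per count of mt-Cytb was 0.383, 0.385 and 0.408 at 0 h and 0.322, 0.316 and 0.321 at 5 days, lower in every 5 day library. mt-Nd4 per mt-Cytb was also lower without overlap, at 0.371 ± 0.0114 and 0.340 ± 0.00965 (SD, n = 3 each). mt-Nd1 and mt-Nd5 per mt-Cytb overlapped between the groups, with means of 0.640 and 0.634 for mt-Nd1 and of 0.826 and 0.842 for mt-Nd5 at 0 h and 5 days. Over these 7 gene-to-gene ratios, mt-Rnr2 per mt-Rnr1 and 6 genes per mt-Cytb counting mt-Nd6 and mt-Co1, an exact two-sided permutation test gave p = 0.1 for the 5 ratios without overlap (adjusted p = 0.14), 0.4 for mt-Nd5 and 0.8 for mt-Nd1. With 3 libraries against 3 the smallest p this test can give is 0.1, so it cannot pass 0.05.

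**Figure D3:**
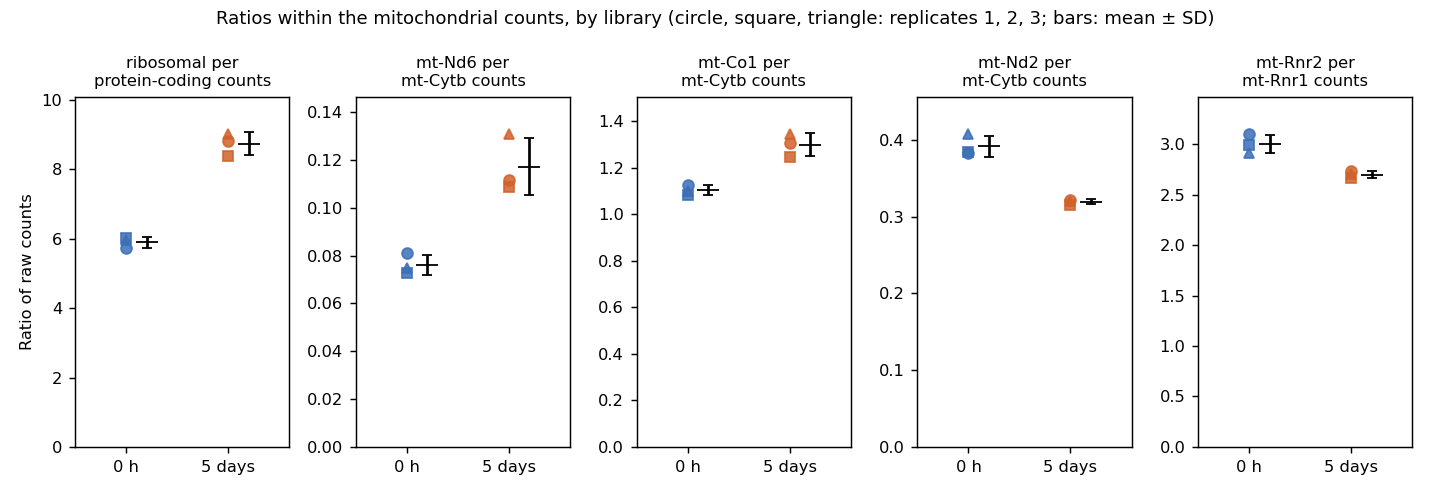
Ratios of raw counts within each library at 0 h and 5 days, with circles, squares and triangles for replicates 1, 2 and 3 and bars for mean ± SD (n = 3). Ribosomal per protein-coding counts, mt-Nd6 per mt-Cytb and mt-Co1 per mt-Cytb lie higher at 5 days, and mt-Nd2 per mt-Cytb and mt-Rnr2 per mt-Rnr1 lie lower.

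Per kilobase of gene, the well-counted messenger RNAs could be ordered at 0 h, by counts over the full gene length. In CPM per kilobase, the means were 1690 for mt-Cytb, 1380 for mt-Co1, 1292 for mt-Nd1, 876 for mt-Nd5, 730 for mt-Nd2, 520 for mt-Nd4 and 283 for mt-Nd6. The libraries of neighbors in this order did not overlap at 0 h. At 5 days mt-Cytb (1538 to 2195) and mt-Co1 (1531 to 2124) overlapped, as did further neighbors. For mt-Co1 and mt-Nd4 much of that length is identical to nuclear copies (described further on), and an order over the remaining length was not computed, so their places are uncertain. The ribosomal RNAs lay above all of these, with 23911 CPM per kilobase for mt-Rnr2 and 13210 for mt-Rnr1 at 0 h.

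The remaining 6 messenger RNAs were almost uncounted, although they lie on the same transcript between well-counted genes. mt-Co2 and mt-Co3, core subunits of complex IV, held 227 and 36 counts over all 6 libraries, and mt-Atp6 and mt-Atp8, subunits of ATP synthase, held 91 and 5. mt-Nd3 and mt-Nd4l, small subunits of complex I, held 588 and 13. In comparison, mt-Co1 held 114716 counts and mt-Nd4 33957. Nuclear pseudogenes with nearly the same sequence are annotated in GENCODE M21 (build GRCm38). A run of 7 of them on chromosome 1 follows the gene order from mt-Co1 to mt-Nd4 over 4663 bases, against 4653 bases of mitochondrial DNA. The pairs below are shown because they show how little separates the copies from the genes, with mismatches in capitals. The first 60 bases of mt-Co3 (chrM:8607-8666, plus strand) have no mismatch to Gm28437 (chr1:24613912-24613971, minus strand). The first 60 bases of mt-Nd3 (chrM:9459-9518, plus strand) differ from Gm28438 (chr1:24613060-24613119, minus strand) by T3C, counted from the first base of the gene. A copy on chromosome 2, Gm13340 (chr2:22589129-22589188, minus strand), has 4 mismatches to mt-Co1 in the stretch shown (chrM:5787-5846, plus strand) and 97.6% identity over 1545 bases.
mt-Co3: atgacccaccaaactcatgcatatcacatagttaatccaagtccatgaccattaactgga
Gm28437: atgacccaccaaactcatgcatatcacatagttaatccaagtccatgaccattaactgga
mt-Nd3: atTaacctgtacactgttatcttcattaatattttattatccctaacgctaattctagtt
Gm28438: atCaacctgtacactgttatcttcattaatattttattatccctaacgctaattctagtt
mt-Co1: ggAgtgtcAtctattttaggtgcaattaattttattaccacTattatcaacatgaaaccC
Gm13340: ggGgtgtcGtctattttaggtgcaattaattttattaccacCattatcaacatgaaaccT

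The share of a gene's 50-base windows found exactly in a nuclear transcript was 100% for mt-Co2, 99.9% for mt-Co3, 99.5% for mt-Atp6, 98.8% for mt-Nd4l and 98.0% for mt-Nd3. It was 62.2% for mt-Nd4, 51.1% for mt-Co1, 8.19% for mt-Nd2, 7.61% for mt-Nd5 and 0% for mt-Nd1, mt-Nd6 and mt-Cytb. mt-Atp8 also had 0%, but it lies inside the copied region. Most of it falls in a stretch of 233 bases between the copies of mt-Co2 and mt-Atp6 that no annotated copy spans, and its end overlaps the start of mt-Atp6, by less than a window. The 11 nuclear copies held 0 to 51 counts per library, so few reads were counted at the copies either. The count files list reads that aligned to more than 1 place apart from the genes, at 4.85 to 6.60% of all entries. Whether the mitochondrial reads lie among these was not tested. mt-Co2, mt-Atp6 and mt-Nd3 passed the filter with these low counts, and none was called (log2 fold changes of 0.26, 0.57 and 0.34, with SEs of 0.29, 0.46 and 0.27). Their values describe only the reads that were counted, and whether they follow the level of the messenger RNAs was not tested.

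**Figure D4:**
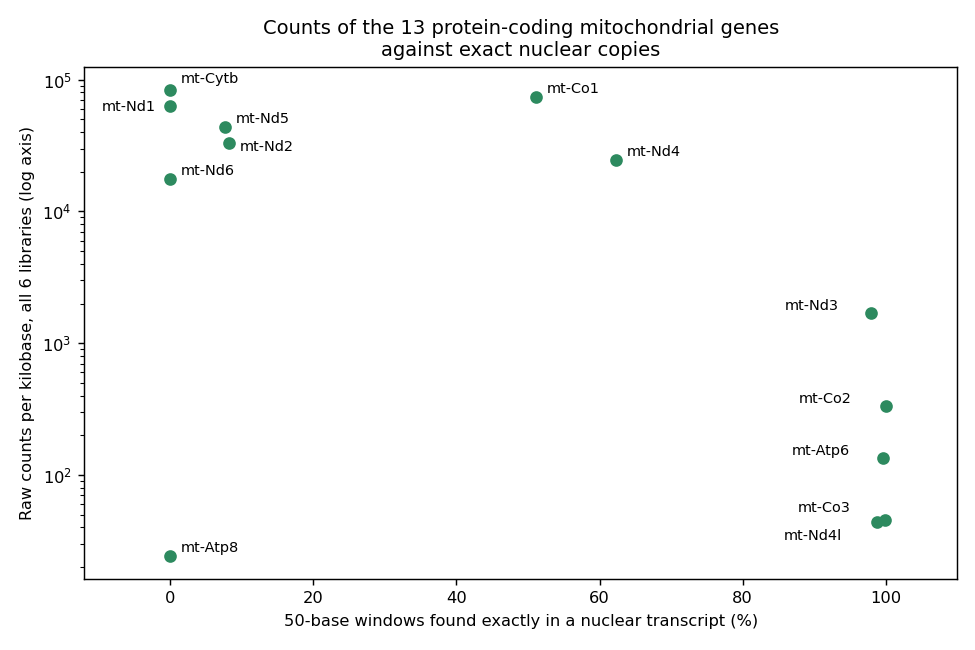
Raw counts per kilobase summed over all 6 libraries (log axis) against the percent of 50-base windows found exactly in a nuclear transcript, for the 13 protein-coding genes. The 5 genes over 90% held 955 counts in all, and mt-Atp8, at 0%, lies inside the copied region.

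Transfer RNAs gave 662 counts in all, and 8 of the 22 had none in any library, which allows up to 0.0621 CPM of counted reads over the 6 libraries (counting error only). The copied region described above holds 5 transfer RNA genes, among them mt-Td, mt-Tk and mt-Tr, which had no counts. Copies were searched only among annotated transcripts, and whether copies bear on the counts of these genes was not tested. mt-Ty and mt-Tp, the carriers of tyrosine and proline, held 505 of the 662 counts (76.3%). Both belong to the light-strand transcript, whose transfer RNAs held 533 counts against 129 for the 14 on the heavy-strand transcript. The strand setting of the counting is not given. Reads of these transfer RNAs and of antisense RNA over them therefore cannot be told apart with certainty. The genes mt-Ty and mt-Tp are shown, with the anticodon in capitals, as the only transfer RNAs that passed the filter (mt-Ty chrM:5260-5326 and mt-Tp chrM:15356-15422, both minus strand).
mt-Ty: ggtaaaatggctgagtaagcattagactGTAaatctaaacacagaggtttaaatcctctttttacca
mt-Tp: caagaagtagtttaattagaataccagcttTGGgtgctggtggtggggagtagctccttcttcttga

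mt-Ty stood at 7.68, 7.35 and 8.58 CPM at 0 h and at 9.71, 4.52 and 8.21 CPM at 5 days. mt-Tp stood at 3.10, 2.96 and 3.70 CPM at 0 h and at 3.34, 2.64 and 1.53 CPM at 5 days. Both overlapped between the groups, with log2 fold changes of -0.08 (SE 0.29) and -0.40 (SE 0.41), and neither was called. Per 1000 protein-coding counts, transfer RNAs summed to 1.81, 1.72 and 1.89 in the 0 h libraries and to 1.34, 1.13 and 1.38 in the later ones, lower in every 5 day library. As a share of gene counts, however, transfer RNAs overlapped between the groups, at 0.00138 to 0.00158% and 0.00104 to 0.00156%. Over the other 20 transfer RNAs the 0 h libraries held 31, 41 and 35 counts, and the 5 day libraries 15, 21 and 14, so each of them rests on very few reads.

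As a share of gene counts, the ribosomal class took 4.56, 4.85 and 5.00% at 0 h and 10.3, 7.67 and 7.78% at 5 days. The mean went from 4.81% ± 0.223 to 8.58% ± 1.49 (SD, n = 3 each). The protein-coding class took 0.797, 0.804 and 0.840% at 0 h and 1.17, 0.915 and 0.862% at 5 days. Both classes were higher in every 5 day library, but these shares also rise where crystallin counts fall: without crystallin genes in the total, the log2 ratio of the protein-coding share was 0.06 in place of 0.27. Restricted to the 6 protein-coding genes with under 10% copied windows, the share overlapped between the groups. Ribosomal counts per protein-coding count do not depend on that total, and came to 5.73, 6.03 and 5.95 in the 0 h libraries and to 8.83, 8.38 and 9.02 in the 5 day libraries. They were 1.48 times higher at 5 days, without overlap. They do depend on how much ribosomal cDNA the kit's cutting step left in each library, which was not tested. Per count of the 6 protein-coding genes with under 10% copied windows, the ratio was 8.89 ± 0.198 at 0 h and 13.7 ± 0.537 at 5 days, without overlap. Both differences rest on sums of counts. Between the medians of counts per kilobase of the 2 classes the ratio was 65.6 ± 4.91 at 0 h and 67.2 ± 2.35 at 5 days (SD, n = 3 each), and the groups overlapped. The median protein-coding gene was mt-Nd6 in 5 of the 6 libraries. Since mt-Nd6 itself rose, the ratio of medians mostly compares the ribosomal RNAs with that gene.

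The nuclear genes for the same complexes mostly fell. Of 79 tested nuclear subunits of complexes I to V with cytochrome c, 48 fell (60.8%, against 22.5% of all tested genes) and none rose. No subunit was higher at an unadjusted p under 0.05 in edgeR (0 genes), in DESeq2 (0) or in limma-voom (0). The median log2 fold change was -0.44. In complex I 24 of 36 fell, among them Ndufb4, an accessory membrane subunit, from 44.7 ± 4.61 to 17.6 ± 1.38 CPM (log2 fold change -1.35). In complex IV 8 of 14 fell, with Cox6c from 170.2 ± 22.9 to 109.4 ± 8.41 CPM (-0.64). In complex V 11 of 16 fell, in complex III 3 of 9 and in complex II, which has no mitochondrially encoded subunit, 2 of 4. Atp5a1, the alpha subunit of ATP synthase, went from 359 ± 27.6 to 294 ± 7.20 CPM (-0.29).

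**Figure D5:**
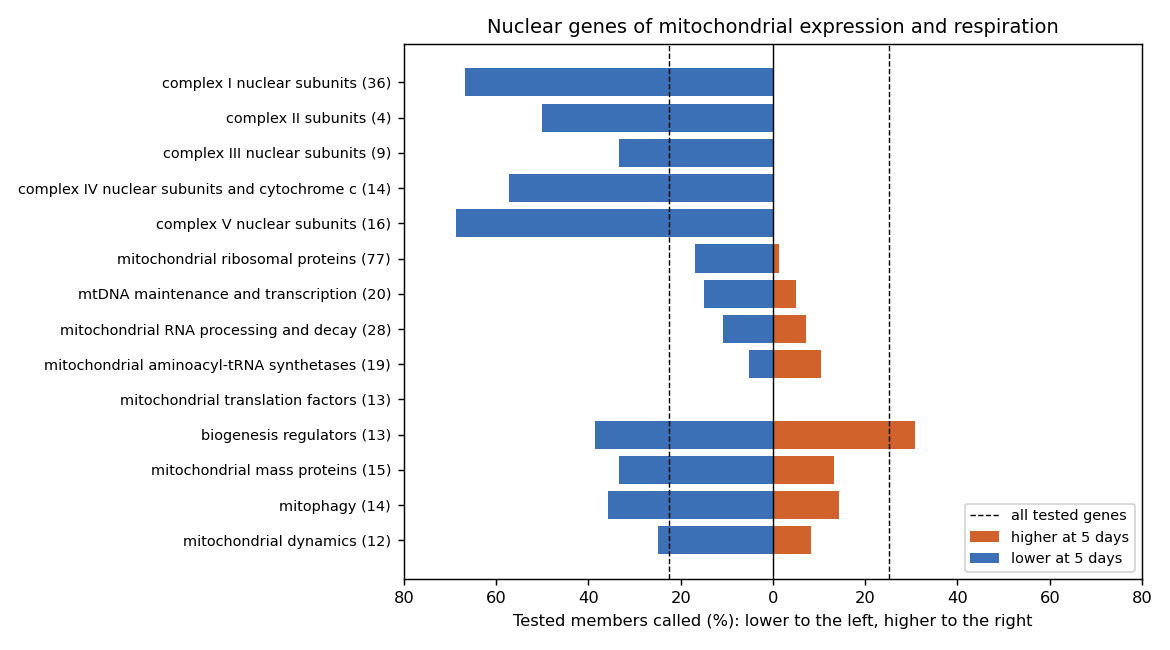
Percent of the tested genes of each nuclear list called lower (left) and higher (right) at 5 days against 0 h, with the number tested in brackets and dashed lines at the percent of all tested genes (22.5 lower, 25.1 higher). Of the 79 tested nuclear respiratory subunits 48 were lower and none higher.

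In the lists of genes acting on mitochondrial DNA and RNA, the shares called stayed below the 47.6% of all tested genes called in either direction (25.1% higher and 22.5% lower). Of 20 tested genes of mtDNA maintenance and transcription 1 rose and 3 fell. Polrmt, the mitochondrial RNA polymerase, stood at 20.9, 21.5 and 21.2 CPM at 0 h and at 18.0, 20.8 and 23.3 CPM at 5 days (log2 fold change -0.03), and Tfam, the main packaging and initiation factor, had a log2 fold change of -0.18. Neither was called. Polg, the catalytic subunit of the mitochondrial DNA polymerase, rose from 23.3 ± 2.45 to 51.2 ± 2.45 CPM (1.14, SE 0.12). Top1mt, a mitochondrial topoisomerase, fell from 17.1 ± 1.85 to 9.71 ± 2.10 CPM (-0.82, SE 0.21). Of 28 genes of mitochondrial RNA processing and decay 2 rose and 3 fell. Pnpt1, the polynucleotide phosphorylase of the mitochondrial matrix, rose from 15.4 ± 3.81 to 26.7 ± 1.59 CPM (0.80), and Hsd17b10, a subunit of the mitochondrial RNase P, fell from 41.3 ± 4.18 to 15.4 ± 1.04 CPM (-1.43). Of 77 mitochondrial ribosomal proteins 1 rose and 13 fell (16.9%, against 22.5% of all tested genes), with a median log2 fold change of -0.24. These proteins are the partners of mt-Rnr1 and mt-Rnr2 in the mitochondrial ribosome. Of 19 mitochondrial aminoacyl-tRNA synthetases, which charge the transfer RNAs, 2 rose and 1 fell. Of 13 translation factors none was called in either direction, with 0 genes at an unadjusted p under 0.05 in edgeR and 0 called by DESeq2 or limma-voom.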

How the data were processed

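Total RNA was sequenced from 6 pools of mouse lens capsules, 3 at 0 h and 3 at 5 days. The authors deposited raw gene counts. HISAT2, HTSeq, edgeR and build GRCm39 are named per the submitters' processing notes. Versions, annotation, strandedness and the counting mode were not given in the sources used here. The 5 HTSeq summary entries (32.3 to 42.6% of entries) were left out of library sizes and tests. Symbols were matched by Ensembl identifier to GENCODE M21 (91.2% of 56940 genes), which also gave sequences and GRCm38 coordinates.

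After filterByExpr and TMM scaling, edgeR 4.0.16 (R 4.3.3) gave quasi-likelihood p-values for 14676 genes, adjusted by Benjamini-Hochberg across them all and called at 0.05. CPM are per TMM-scaled library, and SE is that of the log2 fold change. Nuclear copies were searched with blastn 2.17.0 among GENCODE transcripts (at least 95% identity over at least 50 bases). Class shares and ratios were planned without a test, and the exact two-sided permutation test of the 7 gene-to-gene ratios was added after the data were seen. Nothing states that pools are independent animals beyond their labels, so p-values measure the spread between these pools. Every tested member is named, and from each nuclear list the called member of highest expression and those of largest change, or any member of the mtDNA list, could be named. The members and lists were chosen with earlier results of these data known. Scripts were tested on simulated data. Alternatives were other scalings and filters, DESeq2 1.42.0, limma-voom (limma 3.58.1), a replicate block and leaving out each library. Figures used Python 3.11.15 and matplotlib 3.10.9.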

Additional observations from a re-analysis of the deposited data

How the results depend on the processing

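Over 14 alternatives mt-Rnr1 (log2 fold change 0.65 to 0.95) and mt-Nd6 (0.58 to 0.84) were called higher each time. mt-Rnr2 (0.49 to 0.80) was called in 13 and missed the threshold with a replicate block (0.66, adjusted p = 0.0697 in edgeR's quasi-likelihood test). Same-numbered pools did not deviate together (correlations of 0.039, -0.09 and 0.043), and the labels do not say that the numbers pair pools. With 3 libraries per group these correlations cannot show whether pools shared animals. The block changed no other member's call and left 2 members higher. Of 195 values for members under other settings, 179 kept direction and call. With total library size mt-Nd4 (0.10) and mt-Ty (0.0434) turned direction. Without 1 library the ranges were -0.10 to 0.17 for mt-Nd1, -0.0396 to 0.20 for mt-Nd5, -0.0689 to 0.19 for mt-Cytb, -0.21 to 0.0898 for mt-Nd4 (0.0178 without the second and 0.0898 without the third 5 day library) and -0.30 to 0.19 for mt-Ty. Without 1 library, members called lower numbered 0 to 1 and higher 3 to 4. Total library size moved the median of all genes by 0.13 and raised the share of calls that were higher from 52.7 to 62.9%. It gave 29 nuclear list members called higher in place of 15, and 62 called lower in place of 86. Leaving out 1 library gave 64 (without the second 0 h library) to 88 (without the first 0 h library) nuclear list members called lower. With medians of counts per kilobase the log2 ratio of ribosomal to protein-coding counts was 0.0352 in place of 0.57. The median protein-coding gene was mt-Nd6, which itself rose, in 5 of 6 libraries. The setting with medians gave no value for transfer RNAs, and mt-Atp6 was not tested under the stricter filter. The transfer RNAs held 662 counts in all, so their values rest on few reads. Why their counts were so low was not tested. The cause of these changes was not tested.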

Other observations

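The following lists are given as values, beside 25.1% of all tested genes called higher and 22.5% called lower. Of 13 biogenesis regulators 4 rose and 5 fell, with Myc from 3.77, 6.47 and 5.13 CPM to 14.5, 19.0 and 22.9 CPM (log2 fold change 1.87) and Esrrg from 12.3 ± 1.24 to 3.57 ± 0.728 CPM (-1.78). Of 14 mitophagy genes 2 rose and 5 fell, with Sqstm1, a cargo receptor, from 165 ± 3.21 to 312 ± 27.2 CPM (0.92) and Bnip3l, a receptor on the outer membrane, from 375 ± 44.7 to 160 ± 5.55 CPM (-1.22). Of 15 genes for proteins abundant in mitochondria 2 rose and 5 fell: Slc25a4, the ADP/ATP carrier, fell from 352 ± 24.7 to 229 ± 9.14 CPM (-0.62) and Hspd1, the matrix chaperonin, rose from 73.6 ± 4.07 to 100.4 ± 1.64 CPM (0.45). Of 12 genes of mitochondrial fusion and fission 1 rose and 3 fell, with Mfn2, an outer membrane fusion protein, at a log2 fold change of -0.51 and Opa1, its inner membrane counterpart, at 0.26.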
